A study of Homo sapiens with 41 samples.

Results

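The clustered protocadherins are 53 genes on chromosome 5q31 that encode cell-surface adhesion proteins, and they were taken by name: 15 PCDHA (alpha), 16 PCDHB (beta) and 22 PCDHG (gamma) genes. They stood among 19974 protein-coding genes examined in the same way. Each gene was read at its own start, 1 kb to either side, and the ends that alpha and gamma genes share were read apart. The smallest distance between starts of these genes was 3374 bp, so no window overlapped another. The set was selected on peak calls at some of these genes in the same lists, so what follows is a description, and no statistical test was applied.

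The cells were MDA-MB-231, an established line from a triple-negative human breast tumour, known for its mesenchymal features. Nexturastat A (NextA), an inhibitor of the deacetylase HDAC6, was given at 5 µM for 2 days and compared with control cells, called parental here. In a second design, cells carrying the hairpin shHDAC6 were compared with cells carrying shCtrl. Peak lists of 32 samples were used. HDAC6 ChIP had 2 lists each of control, NextA and shHDAC6 cells, HDAC6 CUT&Tag 2 of control cells, and pan-acetyl ChIP (acetylated histone H3) 2 each of control and NextA cells. PolII ChIP (RNA polymerase II, Rpb1 CTD) had 2 lists and ATAC, which reads open chromatin, 3 lists of each of control, NextA, shCtrl and shHDAC6 cells. Each ChIP or ATAC library was made from 100000 cells, per the labels. The labels give neither the number of hairpins or clones nor whether replicates were separate cultures, so replicate lists may differ technically only.

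Each alpha and gamma gene has its own promoter and variable first exon, which is spliced to constant exons shared by its cluster, while each beta gene stands alone. In neurons, promoters of these clusters are chosen largely at random in each cell, and the proteins bind copies of themselves on neighbouring cells, which lets a neuron tell its own branches from others. The last genes of the alpha and gamma clusters, the C-type genes PCDHAC1, PCDHAC2, PCDHGC3, PCDHGC4 and PCDHGC5, are not chosen in this random way. Promoter choice depends on CTCF, cohesin and DNA methylation, and most of these promoters carry a conserved element with the core letters CGCT. In many tumours the clusters are reported to be silenced by methylation.

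The promoter sequences show what these starts have in common whether or not a peak was called there. RefSeq promoters of GRCh38.p14, from 250 bases before to 50 bases after the start, were at hand for 47 of the 53 genes, all on the plus strand. The 120 bases before the start are given for the genes called in a comparison or marked in most lists that had an entry, with each CGCT in capitals.
PCDHGC3, chr5:141475846-141475965: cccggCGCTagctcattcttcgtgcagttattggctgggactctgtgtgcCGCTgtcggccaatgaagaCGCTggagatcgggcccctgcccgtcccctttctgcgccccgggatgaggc
PCDHGC4, chr5:141484910-141485029: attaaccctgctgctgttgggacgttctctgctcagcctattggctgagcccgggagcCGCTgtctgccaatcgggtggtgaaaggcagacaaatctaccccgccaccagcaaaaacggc
PCDHB2, chr5:141094495-141094614: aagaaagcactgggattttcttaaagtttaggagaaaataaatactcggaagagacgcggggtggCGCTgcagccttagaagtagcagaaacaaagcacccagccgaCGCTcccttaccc
PCDHGB3, chr5:141370122-141370241: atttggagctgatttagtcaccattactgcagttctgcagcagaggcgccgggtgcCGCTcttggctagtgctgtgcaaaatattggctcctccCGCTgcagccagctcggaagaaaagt
PCDHA2, chr5:140794732-140794851: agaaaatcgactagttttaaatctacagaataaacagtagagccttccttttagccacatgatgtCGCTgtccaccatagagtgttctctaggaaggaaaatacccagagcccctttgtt
PCDHB16, chr5:141182267-141182386: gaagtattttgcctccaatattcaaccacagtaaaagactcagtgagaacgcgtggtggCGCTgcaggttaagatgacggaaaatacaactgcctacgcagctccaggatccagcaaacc
The same stretch of PCDHA1 and PCDHA4, alpha genes with no peak at their start in any list, is given for comparison.
PCDHA1, chr5:140786020-140786139: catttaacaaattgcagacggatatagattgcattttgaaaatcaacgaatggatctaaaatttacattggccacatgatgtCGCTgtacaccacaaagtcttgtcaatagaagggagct
PCDHA4, chr5:140806948-140807067: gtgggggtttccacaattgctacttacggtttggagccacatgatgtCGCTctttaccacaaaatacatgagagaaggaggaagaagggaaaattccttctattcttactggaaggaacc
Counted from the start, the first base of CGCT lay at −115, −70 and −51 in PCDHGC3 and at −62 in PCDHGC4.

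CGCT, searched on both strands of the 300 bases, was in 46 of the 47 promoters (97.9%; PCDHA9 lacked it) and in 81.2% of 15813 promoters of all genes. Within the 120 bases before the start and on the gene's strand, it was in 44 of 46 promoters (95.7%), against 39.6% of all promoters. PCDHA9 and PCDHB8 were the exceptions, and 1 promoter was left out because its entry begins at another start. The letters around CGCT differed by cluster. GTGGCGCT was in 13 beta promoters (1.53% of all promoters, both strands), ATGTCGCT in 9 alpha promoters (0.272%) and GCCGCTGT in 11 gamma promoters (1.87%), while GTCGCTGT was in 5 alpha and 6 gamma promoters (0.936%). TATAAA was in 6 of the 47 (12.8%, against 9.64% of all promoters) and AGNNGGC, a part of the CTCF motif, in 16 (34.0%, against 70.7%). TATAAA cannot hold CGCT, while AGNNGGC can hold it on the other strand (as AGCGGGC), so those counts are not independent. These promoters held few CpG dinucleotides. The median was 7 in 300 bases, against 22 over all promoters, and 45 of 47 lay below that value. PCDHAC1 (27) and PCDHGC4 (23), both C-type, were the ones above it. CGCT did not separate starts with a peak from those without: it was in 26 of 27 with a peak in at least 1 list and in 18 of 19 with none, and the median CpG number was 8 and 6.

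The lists differed in ways that bear on every absence below. They held 25878 to 79666 peaks in ATAC, 19519 to 31198 in PolII ChIP, 1418 to 61186 in pan-acetyl ChIP, 235 to 63833 in HDAC6 ChIP and 14458 to 22481 in CUT&Tag. No read counts were at hand, so the sequencing depth is unknown and no peak called is not the same as no signal. Peak numbers run on with gaps in many lists. The first ATAC control and NextA lists kept 99.7% of their numbering, the other ATAC control lists 3.91% and 3.90%, the other NextA lists 21.1% and 21.3%, and the hairpin lists 6.76 to 9.70%. In HDAC6 ChIP the first control and NextA lists were made with the CST antibody, and the second ones and both shHDAC6 lists with Novus. Both CUT&Tag lists were made with Novus. The second NextA HDAC6 list has peak names with a prefix otherwise used for shCtrl, and the second CUT&Tag list one otherwise used for a hairpin line. Both were kept where their labels put them, and no result below rests on the former having peaks.

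Markers of the labelled cell type also moved with the hairpins. Of 5 basal or mesenchymal markers, the ATAC lists of parental cells held a peak at the start of 4 to 5, and every hairpin list at 2 (VIM and CAV1). CD44 and EGFR, surface receptors typical of this line, had an ATAC peak in all 6 parental lists and in 0 of the 6 hairpin lists. AXL was also at 0 there. Of 7 neuron markers, 1 to 3 had a peak in parental ATAC lists and 3 to 4 in hairpin lists, with SNAP25 and NEFL in all 6 of the latter. PolII did not follow ATAC at these receptors: EGFR had a PolII peak in all 8 PolII lists, CD44 in the 4 parental and both shHDAC6 but no shCtrl list, and AXL in the 4 parental and both shCtrl but no shHDAC6 list. Of 6 luminal markers, ATAC lists held 0 to 3, with ESR1 at 0 everywhere, and of 5 leukocyte markers 0 to 2. Comparisons between parental and hairpin cells below carry this difference, and its part in them was not tested.

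Few protocadherin starts were marked in many lists. A peak was called at 31 of the 53 starts in at least 1 of the 32 lists: 4 of 15 alpha, 14 of 16 beta and 13 of 22 gamma genes. Of these 31, 9 were marked in 1 list only and 18 in 3 or more. The other 22 of the 53 starts, 11 alpha, 2 beta and 9 gamma, had none, against 17.5% of all protein-coding starts. For 4155 of all genes the strand was not given and the end with more peaks was taken. This can lower that share and raise the shares of all starts given below. ATAC marked 25 of the genes in some list, HDAC6 ChIP 9, PolII ChIP 8, pan-acetyl ChIP 3 and CUT&Tag 2. Outside PCDHGC3 and PCDHGC4, every HDAC6 ChIP peak at these starts had a −log10 q of 0.21 or less. PCDHB1, PCDHB7, PCDHGA6, PCDHGB4 and PCDHGB5 had no other peak. The pan-acetyl peaks had a −log10 q of 0.19 at PCDHA2, 0.02 at PCDHGA1 and 1.09 at PCDHGB7. PCDHGC3 was the only one of the 53 genes with an ATAC peak in all 12 ATAC lists, a state found at 40.8% of all starts. None had a PolII peak in all 8 PolII lists, against 51.5% of all starts.

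**Figure D1:**
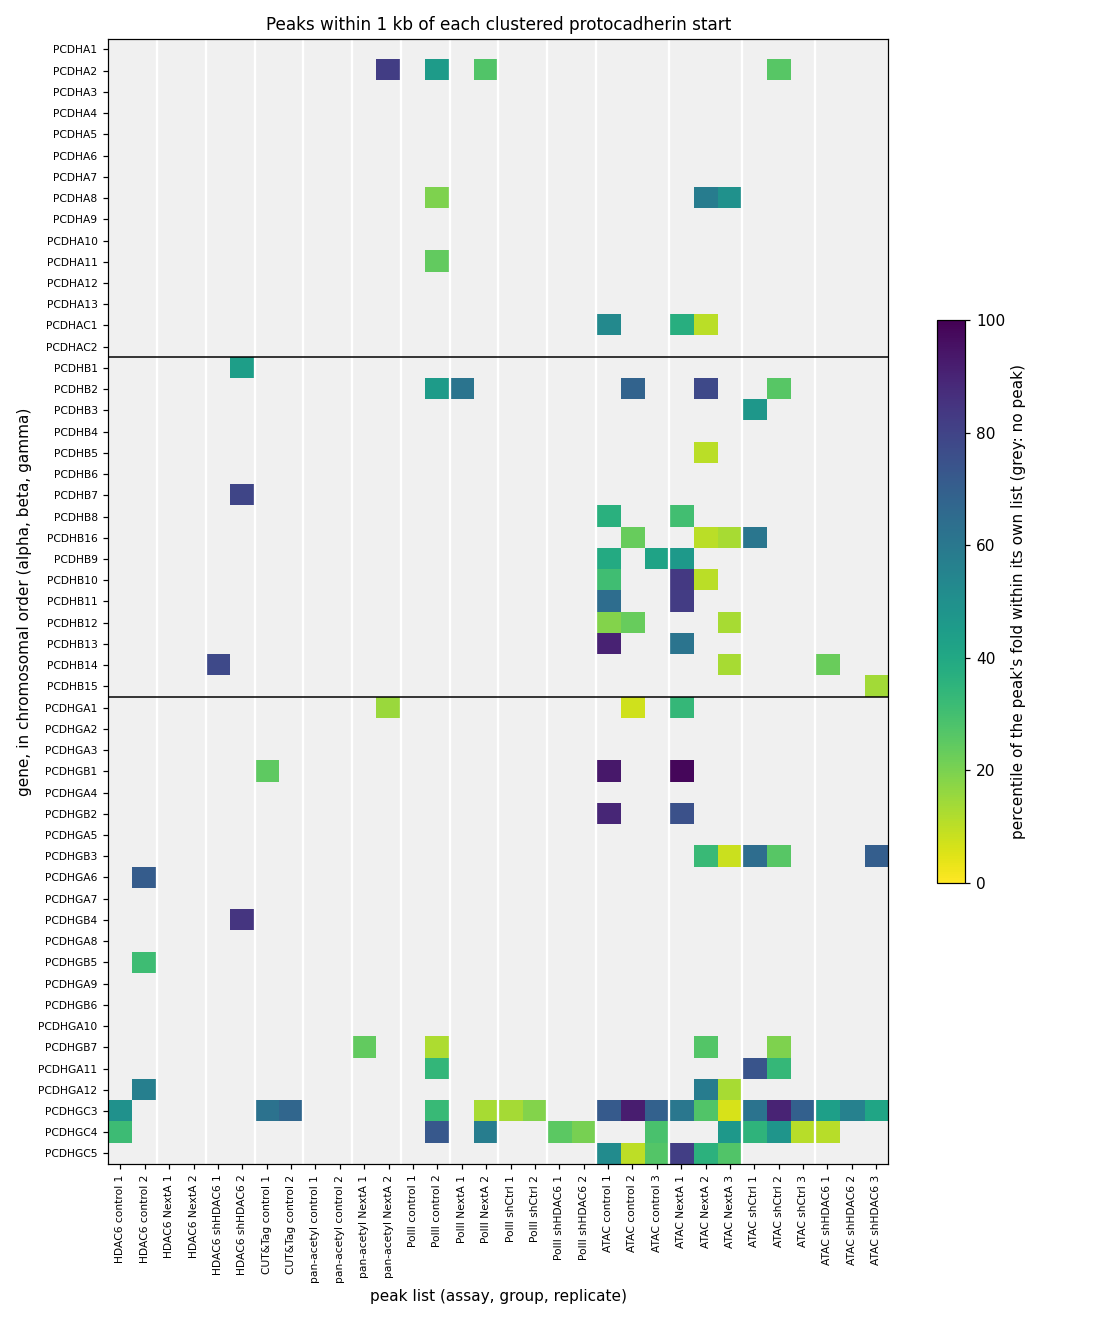
Map of the 53 genes (vertical axis, chromosomal order, black lines between alpha, beta and gamma) by the 32 peak lists (horizontal axis). A coloured cell is a peak within 1 kb of the start, coloured by the percentile of its deposited fold within its own list, and grey is no peak. PCDHGC3, with peaks in 19 lists, fills the longest row, and most alpha rows are empty.

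List by list, ATAC peaks lay at 1 to 11 of these starts (1.89 to 20.8%), whereas 53.0 to 60.4% of all starts had one. In parental cells the numbers were 11, 6 and 4 in control and 11, 11 and 9 in NextA lists. In hairpin cells they were 6, 7 and 2 in shCtrl and 3, 1 and 3 in shHDAC6 lists. The ranges of control and NextA lists overlapped, as did those of shCtrl and shHDAC6 lists. PolII peaks lay at 0 to 8 starts (up to 15.1%), against 55.6 to 65.9% of all starts. The second control list held the 8 and the first control list 0. HDAC6 ChIP marked 0 to 3 starts (up to 5.66%), against 0.185 to 52.2% of all starts. CUT&Tag marked 1 to 2 (1.89 to 3.77%), against 36.9 to 47.1%, and pan-acetyl ChIP 0 to 2 (up to 3.77%), against 6.19 to 58.8%. In the Novus shHDAC6 HDAC6 lists the share of marked protocadherin starts was 1.89%, against 2.55% of all starts, in the first and 5.66%, against 1.77%, in the second. These were 1 and 3 starts, each with a peak at a deposited −log10 q of 0.07 or less.

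**Figure D2:**
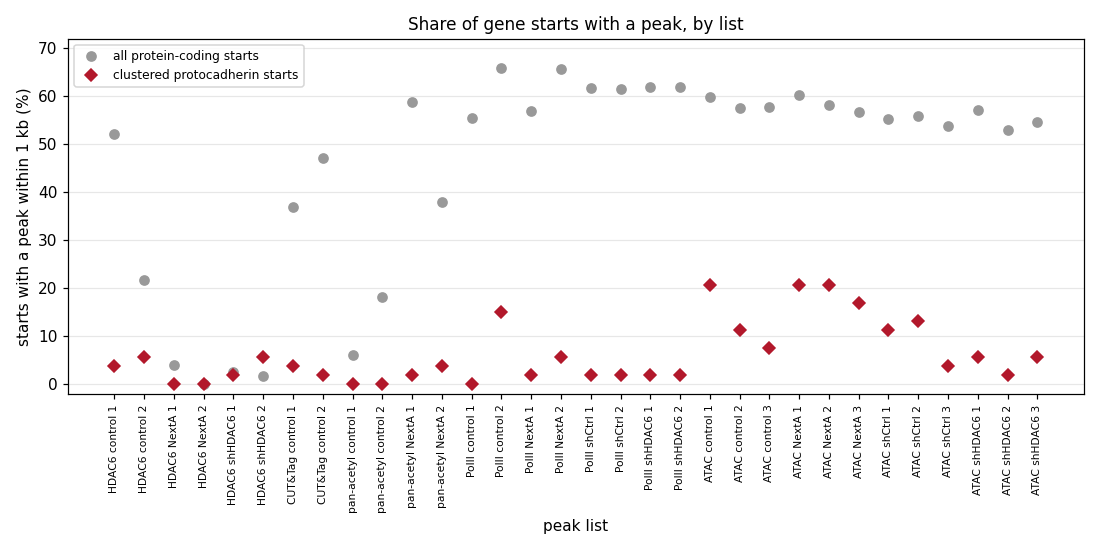
Share of starts with a peak within 1 kb (vertical axis, percent) in each of the 32 lists (horizontal axis), for the 53 clustered protocadherins (red diamonds) and all protein-coding genes (grey circles). In the ATAC lists the protocadherin share lies between 1.89 and 20.8% and the share of all starts between 53.0 and 60.4%.

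The alpha genes were the least marked. Peaks lay at 4 starts only: PCDHA2, PCDHA8, PCDHA11 and PCDHAC1. PCDHA2 had a PolII peak of 4.74-fold over the caller's background (−log10 q of 5.03) in the second control list and of 2.89-fold in the second NextA list. It also had a pan-acetyl peak of 2.48-fold in the second NextA list and an ATAC peak of 4.45-fold in the second shCtrl list. PCDHA8 had an ATAC peak in the second and the third NextA list (6.24- and 5.66-fold), in no control ATAC list, with summits 616 and 576 bp inside the gene, and a PolII peak in the second control list (2.79-fold). The C-type gene PCDHAC1 had ATAC peaks in the first control list (7.78-fold) and the first and second NextA lists (6.06- and 4.16-fold). PCDHA11 was marked once, by PolII in the second control list (2.99-fold). PCDHAC2, the other C-type alpha gene, was unmarked, as were PCDHA1, PCDHA3 to PCDHA7, PCDHA9, PCDHA10, PCDHA12 and PCDHA13. No alpha start was marked in every list of any group.

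Beta genes were marked mostly by ATAC and mostly in parental cells. Of the 16, 12 had an ATAC peak in some list and 1, PCDHB2, a PolII peak. PCDHB2 had PolII peaks of 4.77-fold in the second control list and 3.87-fold in the first NextA list. Its ATAC peaks were of 6.92-fold in the second control, 8.0-fold in the second NextA and 4.45-fold in the second shCtrl list. PCDHB16 had ATAC peaks in 4 lists, of 4.16- to 5.75-fold, in control, NextA and shCtrl cells. PCDHB9, PCDHB10 and PCDHB12 each had 3, all in parental cells. The highest of those was PCDHB10 in the first NextA list (10.59-fold). PCDHB3 (first shCtrl list, 5.11-fold), PCDHB5 (second NextA list, 4.16-fold) and PCDHB15 (the third shHDAC6 list, 4.14-fold) had 1 ATAC peak each. PCDHB14 had ATAC peaks in the third NextA and the first shHDAC6 list (4.25- and 4.37-fold) and an HDAC6 peak in the first shHDAC6 list. PCDHB4 and PCDHB6 had no peak in any list. PCDHB1 and PCDHB7 were marked only by the second shHDAC6 HDAC6 list.

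Peaks at 5 starts, PCDHB8, PCDHB11, PCDHB13, PCDHGB1 and PCDHGB2, lay in both first parental ATAC lists (control and NextA) and in no other ATAC list of parental cells. That is 9.43% of the 53 genes, and 3.30% of all starts showed this pattern, which was looked for after the values were seen. PCDHGB1 had 13.40-fold in the control and 14.57-fold in the NextA list, at the 93.7th and 98.1st percentiles of those lists. PCDHB13 had 12.59- and 8.03-fold, and PCDHGB2 12.26- and 9.52-fold. PCDHB11 had 8.85- and 10.39-fold, and PCDHB8 6.41- and 5.57-fold. None of the 5 starts had a peak in the other 10 ATAC lists. The first lists were called on q and kept nearly all of their numbering, and the others were called on p and kept part of it; the part of this difference in the pattern was not tested.

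Among the gamma genes outside the C-type, PCDHGB3 was marked most often, in 5 ATAC lists: the second and the third NextA list (4.85- and 4.23-fold), the first and second shCtrl lists (5.95- and 4.45-fold) and the third shHDAC6 list (6.58-fold). PCDHGB7 had ATAC peaks in the second NextA and second shCtrl lists (4.71- and 4.33-fold), a PolII peak in the second control list (2.53-fold) and a pan-acetyl peak in the first NextA list (3.04-fold). PCDHGA11 had ATAC peaks in the first and second shCtrl lists and a PolII peak in the second control list (3.60-fold). PCDHGA12 had ATAC peaks in the second and the third NextA list (6.24- and 4.25-fold) and a Novus HDAC6 peak in the second control list. PCDHGA1 had ATAC peaks in the second control and the first NextA list (4.22- and 5.73-fold) and a pan-acetyl peak in the second NextA list. PCDHGA6, PCDHGB4 and PCDHGB5 were marked once each, by HDAC6 ChIP. The unmarked gamma genes were PCDHGA2, PCDHGA3, PCDHGA4, PCDHGA5, PCDHGA7, PCDHGA8, PCDHGA9, PCDHGA10 and PCDHGB6. None of these starts was marked in every list of a group.

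Where an ATAC peak was called, it was mostly a modest one. The 75 ATAC peaks at these starts had a median percentile of 37.4 within their own lists. The 24 peaks at PCDHGC3, PCDHGC4 and PCDHGC5 had a median percentile of 45.0 and the other 51 one of 33.4. Summits lay close to the start in most genes. The median was within 100 bp in the genes with the most peaks, at −77.5 bp in PCDHGC3, −79.5 bp in PCDHGC4, −5 bp in PCDHGC5 and −60 bp in PCDHGB3, negative values lying before the start.

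The C-type gamma genes held the peaks that recurred. PCDHGC3 (GRCh38, chromosome 5, start 141475966) was marked in 19 lists. Its ATAC peaks were of 9.63-, 10.00- and 6.94-fold in control, 7.92-, 4.73- and 4.17-fold in NextA, 5.79-, 8.59- and 6.32-fold in shCtrl, and 5.06-, 5.70- and 4.94-fold in shHDAC6 lists. Their percentiles within the lists were 71.6, 91.9 and 68.9 in control and 60.5, 27.3 and 6.0 in NextA lists, and 61.9, 89.9 and 69.2 in shCtrl and 43.4, 56.1 and 41.2 in shHDAC6 lists. By fold, control and NextA lists overlapped (6.94 in the third control and 7.92 in the first NextA list), while shCtrl and shHDAC6 lists did not. By percentile, the treated lists of both designs lay below their controls without overlap. The lists differ in length and in the share of peaks kept, so these ranks do not show a change in signal. The summits of the 12 peaks ran from −114 to 105 bp of the start, over the stretch that holds its 3 CGCT matches. HDAC6 was also called here, in both CUT&Tag lists (Novus antibody, 3.52- and 3.69-fold) and in the CST control ChIP list (3.06-fold). It was not called in the Novus control ChIP list or any NextA or shHDAC6 list.

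PCDHGC4 (start 141485030), the next gene, was marked in 11 lists. Its ATAC peaks were of 4.66-, 5.17- and 4.13-fold in the 3 shCtrl lists, 4.09-fold in the first shHDAC6 list, and 4.79- and 5.56-fold in the third control and the third NextA list. HDAC6 ChIP marked it in the CST control list (2.92-fold). PCDHGC5 (start 141489081), the last gene of the cluster, was marked by ATAC alone. Its peaks were of 7.70-, 4.29- and 4.69-fold in control and 10.29-, 4.95- and 4.71-fold in NextA lists, and none was called in the 6 hairpin lists.

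**Figure D3:**
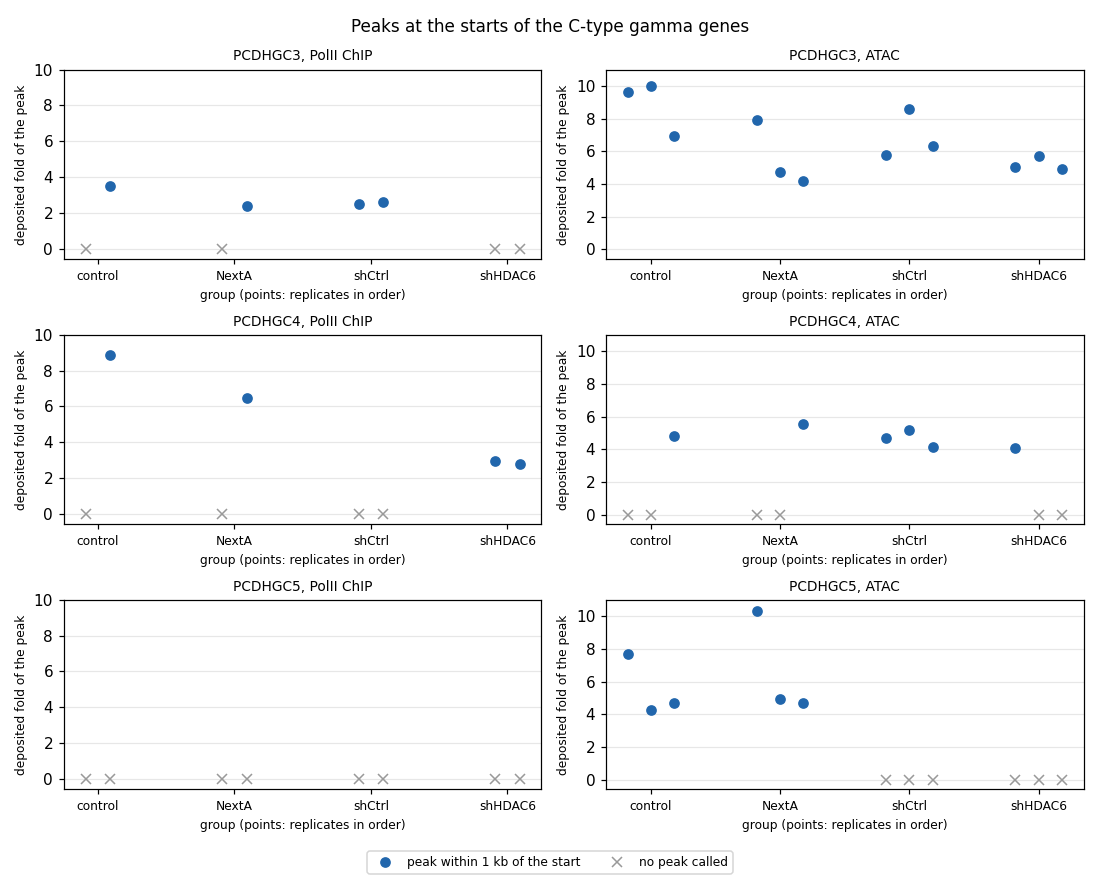
Deposited fold of the PolII (left) and ATAC (right) peak within 1 kb of the starts of PCDHGC3, PCDHGC4 and PCDHGC5 (vertical axes), by group and replicate (horizontal axes). Blue points are peaks and grey crosses, drawn at 0, are lists with no peak called. PCDHGC3 has an ATAC peak in all 12 lists, and PCDHGC5 in the 6 parental lists and none of the 6 hairpin lists.

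The study asked what HDAC6 inhibition and knockdown do to chromatin. A start was called lost where every list of the reference group and no list of the other had a peak, and gained in the reverse case. NextA against control gave no such call at any of the 53 starts in any assay. With 1 list left out, up to 3 HDAC6 losses (beside 20.4% of all starts) and 4 PolII losses (1.42%) appeared. Gains then reached 2 in pan-acetyl ChIP (22.8%) and 3 in ATAC (0.496%). In HDAC6 ChIP 0 were lost (13.5% of all starts were) and 0 gained (0% of all starts). None of the protocadherin starts had an HDAC6, pan-acetyl or PolII peak in both control lists, so none could be lost in those assays, and the control HDAC6 lists were made with different antibodies. In the CST pair, PCDHGC3 and PCDHGC4 had HDAC6 in the control and not in the NextA list. Those lists marked 52.2% and 4.12% of all starts, and without the Novus control list 48.2% of all starts were lost. In pan-acetyl ChIP 0 were lost (0% of all starts) and 0 gained, although all 53 were free of peaks in control lists and 19.6% of all starts were gained. PCDHA2, PCDHGA1 and PCDHGB7 had a pan-acetyl peak in 1 of the 2 NextA lists each. In PolII ChIP 0 were lost (0.0451% of all starts) and 0 gained (0.285%). In ATAC 0 were lost (0.0451%) and 0 gained (0.0551%), and PCDHGC3 and PCDHGC5 had a peak in all 6 lists. PCDHA8, PCDHGB3 and PCDHGA12 had an ATAC peak in NextA lists 2 and 3 and in no control list. NextA list 1 had none at these starts either, and without it they were the 3 ATAC gains above (0.496% of all starts). Control lists 2 and 3 kept 3.91% and 3.90% of their numbering, and NextA lists 2 and 3 kept 21.1% and 21.3%. List 1 of each group kept 99.7% and was called on q, the others on p. The part of these differences in the pattern was not tested. PCDHGB3 also had an ATAC peak in shCtrl lists 1 and 2.

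The PolII lists of shHDAC6 against shCtrl differed at a C-type gene and its neighbour. This contrast was known when the genes were chosen. PCDHGC3 was lost (0.591% of all starts were) and PCDHGC4 was gained (0.821%). At PCDHGC3 the PolII peak was of 2.49- and 2.59-fold in the shCtrl lists, with a −log10 q of 0.39 and 0.52, and none was called in the shHDAC6 lists. At PCDHGC4 none was called in the shCtrl lists, and it was of 2.92- and 2.76-fold in the shHDAC6 lists, with a −log10 q of 2.2 and 1.88. These are weak calls, at the 13.4th and 18.4th percentile of their lists for PCDHGC3. With peaks of a −log10 q of at least 5 alone, both calls ended. Cell type markers were called in the same contrast: AXL and SNAP25 were lost and CD44 was gained, which is 2 of 5 basal and 1 of 7 neuron markers, and their part was not tested. In parental cells the second control and second NextA lists had PolII at both genes, of 8.88- and 6.47-fold at PCDHGC4 and 3.5- and 2.4-fold at PCDHGC3, and the first lists had none at either. ATAC of the same contrast gave 0 lost (0.195% of all starts) and 0 gained (0.190%). At PCDHGC4 ATAC was called in 3 of 3 shCtrl lists and 1 of 3 shHDAC6 lists, the reverse of its PolII call. With a −log10 q of at least 5, PCDHGC3 became an ATAC loss, beside 0.145% of all starts. Its values there were 5.55, 11.70 and 6.27 in shCtrl and 4.15, 4.98 and 3.75 in shHDAC6 lists.

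The second PolII lists of parental cells stood apart from the first. The second control list marked PCDHA2, PCDHA8, PCDHA11, PCDHB2, PCDHGB7, PCDHGA11, PCDHGC3 and PCDHGC4, and the first marked none of the 53. The second also held a peak at 5 of 6 luminal and 5 of 7 neuron markers, against 2 and 1 in the first, and at 65.9% of all starts, against 55.6%. The second NextA list marked PCDHA2, PCDHGC3 and PCDHGC4 and the first PCDHB2. It held 4 luminal and 4 neuron markers, against 3 and 1, and 65.7% of all starts, against 57.0%. Without the second control and NextA lists, PolII was left at 3 starts, PCDHB2, PCDHGC3 and PCDHGC4. The part of these differences in the calls was not tested.

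Hairpin cells differed from parental cells without NextA or knockdown. For shCtrl against parental control, PolII gave 0 lost (1.22% of all starts), where none could be lost, and 0 gained (0.601%). ATAC gave 1 lost, PCDHGC5 (1.43% of all starts were lost), and 0 gained (0.290%). Over all 12 ATAC lists, PCDHGC5 was in the 6 parental and in none of the 6 hairpin lists, as were 0.646% of all starts, a comparison added after the values were seen. The difference lay between the cell groups and not within them: 3 of 3 lists of control and of NextA, and 0 of 3 of shCtrl and of shHDAC6. The hairpin ATAC lists were shorter, 25878 to 32998 peaks. When each list was limited to as many of its strongest peaks as the shortest held, PCDHGC5 was no longer marked in any control list, so the call ended. In bulk samples, fewer cells with an open start and a less open start in every cell cannot be told apart.

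The shared parts of the clusters were read apart from the starts. All 22 gamma genes end at position 141512975 and all 15 alpha genes at 141012347, while the 16 beta genes have 16 different ends. At the gamma end, PolII peaks were called in both shCtrl lists (2.45- and 2.39-fold, −log10 q of 0.71 and 0.63) and in the second NextA list (2.39-fold), and in no control or shHDAC6 list. They were 1881 to 2188 bp long and reached 1397 to 1430 bp past the gamma end, to within 616 bp of the lower end of DIAPH1, a formin gene that runs towards the cluster on the minus strand. PolII at this place cannot be assigned to one of the 22 gamma genes or to DIAPH1 from position alone. With a −log10 q of at least 5 no PolII peak was left there. The gamma end also had an HDAC6 peak in the CST control list (3.41-fold) and an ATAC peak in the first shCtrl list (3.80-fold). Over the stretch of 23895 bp from beyond the PCDHGC5 start to 1 kb past the end, PolII peaks covered 1.71% ± 0.0778 (SD, n = 2) in control lists. They covered 4.58% ± 4.42 (n = 2) in NextA and 6.78% ± 0.877 (n = 2) in shCtrl lists, and 0 in both shHDAC6 lists. Each control value was 1 peak, at −3938 to −3518 bp of the end in the first list and −17856 to −17463 bp in the second. The close control values are thus not a shared peak, and the shCtrl values are the peak at the end.

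A place inside the gamma constant stretch, from −4218 to −3333 bp of the shared end (chr5:141508757-141509642), was marked in 9 lists. ATAC peaks there were of 13.77-, 6.13- and 5.56-fold in control and 12.32- and 6.03-fold in the first and second NextA lists, and none was called in the third NextA list or the 6 hairpin lists. PolII marked it in the first control and first NextA lists (2.97- and 2.77-fold), pan-acetyl ChIP in the first NextA list (3.71-fold) and HDAC6 ChIP in the CST control list (3.11-fold). ATAC marked it in 5 of 6 parental lists, as it did PCDHGC5 in 6 of 6, and neither in a hairpin list. The alpha constant stretch of 45872 bp held a recurrent ATAC peak in the third control and the second and the third NextA list (4.54-, 7.07- and 6.33-fold), and none in hairpin lists. The alpha end itself had a peak in 1 list, the Novus HDAC6 control.

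**Figure D4:**
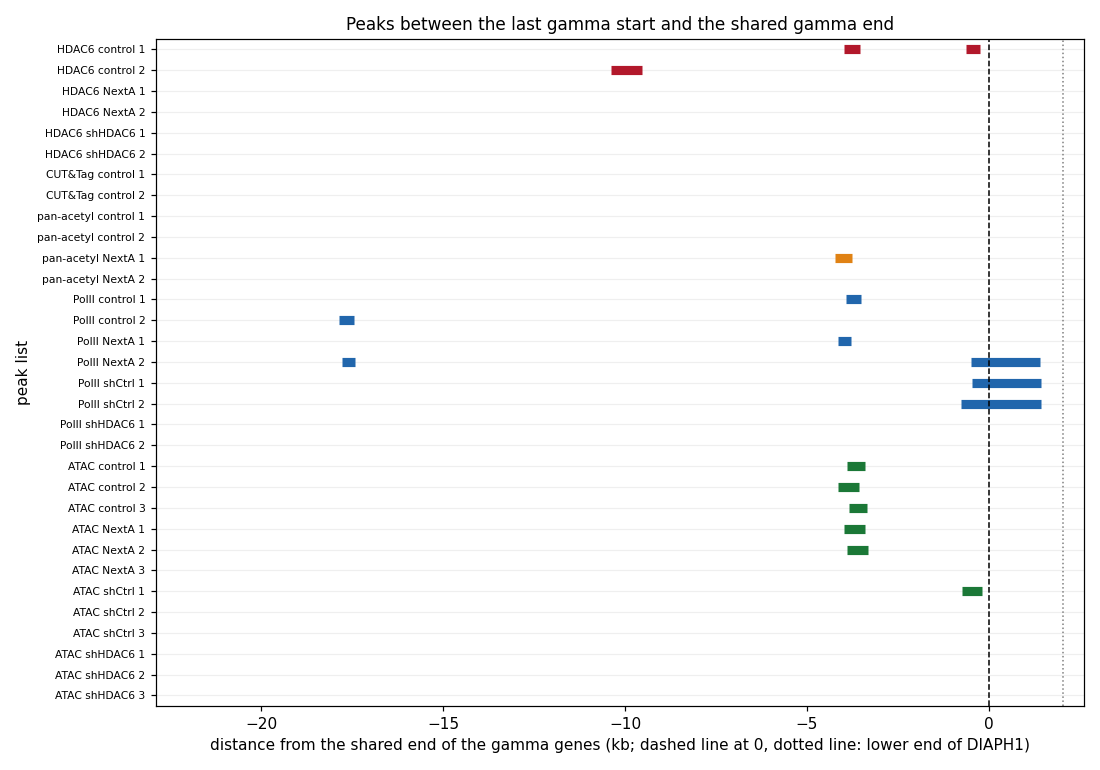
Peaks in the gamma constant stretch, drawn to scale as bars against distance from the shared gamma end in kb (horizontal axis), by list (vertical axis). Red is HDAC6, orange pan-acetyl, blue PolII and green ATAC. The 2 shCtrl PolII lists have a bar across the end and the 2 shHDAC6 lists have none, and the ATAC bars from −4218 to −3333 bp are all in parental lists.

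Peaks between the starts varied by cluster. The peaks of all lists merged into 85 regions over the locus, of which 35 lay at a protocadherin start, 46 were in 1 list only and 8 in 6 or more. Median ATAC peak density was 2.21 per Mb in the alpha, 12.6 in the beta and 27.4 in the gamma cluster, beside 10.7 on all of chromosome 5. The alpha cluster was below chromosome 5 in 12 of 12 ATAC lists, the beta cluster in 5 and the gamma cluster in 1. A region 9435 bp before the PCDHB2 start (chr5:141084455-141085180) was marked in 10 lists, with ATAC in all 6 parental, 2 of 3 shCtrl and 0 of 3 shHDAC6 lists. Another, 9928 bp before the PCDHB1 start (chr5:141039488-141041446), was marked in 7 lists. The widest mark of the locus, in 26 lists, was at TAF7, a gene of the general transcription machinery that lies between the beta and gamma clusters.

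Genes around and outside the clusters were marked far more often than the clustered protocadherins. Over all starts, 40.8% had an ATAC peak in all 12 ATAC lists and 51.5% a PolII peak in all 8 PolII lists. Of the 6 neighbours looked at, 5 had an ATAC peak in all 12 ATAC lists (TAF7, DIAPH1, HDAC3, ZMAT2 and HARS2), and SLC25A2, between the beta and gamma clusters, had no peak in any list. Of 28 regulators and partners of these genes, such as CTCF, the cohesin subunit RAD21, the chromatin repressor SMCHD1, the methyltransferase DNMT3B and the kinases FYN and PTK2, 21 had ATAC in all 12 and 27 PolII in all 8 lists. With NextA, 7 of the 28 lost HDAC6 (SMC3, NIPBL, WAPL, PDS5A, DNMT3B, TRIM28 and AXIN1), beside 13.5% of all starts. Only 9 of the 28 had HDAC6 in both control lists and could be lost, so 7 of 9 were. Of all starts that could be lost, 91.4% were, and the Novus NextA list held 235 peaks. Pan-acetyl was gained at 6 of the 28 (STAG2, DNMT3A, DNMT3B, FYN, NCKAP1 and CTNNB1), beside 19.6% of all starts. Only 12 of the 28 had no pan-acetyl peak in control lists and could be gained, so 6 of 12 were. Of all starts that could be gained, 25.1% were. After knockdown 1, DNMT3B, gained ATAC, in 3 of 3 shHDAC6 and 0 of 3 shCtrl lists (0.190% of all starts), and 0 were called in PolII. DNMT3B also had ATAC in 2 of 3 control and 2 of 3 NextA lists, so its start was not closed in parental cells. Of 11 non-clustered protocadherins, which have one promoter each, 3 had ATAC in all 12 lists (PCDH1, PCDH9 and PCDH10). That share lay below the one over all starts. With NextA, PCDH1 and PCDH7 lost HDAC6 (2 of 11, beside 13.5% of all starts), and these were the 2 with HDAC6 in both control lists. PCDH9 gained pan-acetyl (1 of 11, beside 19.6%). In parental control cells 3 of the 11 had ATAC in every list and in shCtrl cells 7 did.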

How the data were processed

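Peak lists of 32 of 41 samples were analysed; the other 9, inputs and a negative control, were not analysed here. Tools listed in the submitters' processing notes, with no role stated, are MACS2 2.2.7.1, Bowtie2 2.4.4, ChIPseeker 1.28.2, Trim Galore 0.6.7, deepTools 3.5.1 and SAMtools 1.13; the build listed is hg38 (GRCh38). The authors deposited 1 list per sample, with a linear fold ratio per peak, its −log10 p and −log10 q, a score and, for ATAC, the summit offset. Fold and percentile are the authors' values, used to describe or filter peaks within a list.

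Repeated intervals were merged and chromosomes 1 to 22 and X kept. Gene positions came from RefSeq (GRCh38.p14). The strand came from the promoter table for 15819 of 19974 genes, and otherwise the end with a peak in more lists was the start. With as many lists at both ends, a peak at either end counted. The 6 protocadherins without an entry took the plus strand of the other 47. A peak counted within 1 kb of the start with an overlap of at least 1 bp. Alternatives were a 3 kb or 500 bp window, 200 bp of overlap, equal list length, only peaks with −log10 q of 5 or more, and leaving out each list; those for shCtrl against parental cells, and the CGCT count in 120 bases, were added after seeing the data. The call rule was tested on simulated data. 1 gene of the marker lists is not reported here. The genes and gene lists were chosen with earlier results of these data known. Every protocadherin was accounted for, called genes were given with their values, and promoters were printed for up to 6 genes, called genes first, and 2 without a peak. Python 3.11.15, pandas 2.3.3, numpy 2.4.6 and matplotlib 3.10.9 were used.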

Additional observations from a re-analysis of the deposited data

How the results depend on the processing

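Of 80 recounts of lost or gained protocadherin starts under another window, overlap, q threshold or list length, 73 gave a number within 1.5 times the reported one. Most reported numbers were 0, and in several comparisons no start could be lost, so this mostly counts 0 staying 0. The reported calls other than 0 were PCDHGC3 and PCDHGC4 in PolII and PCDHGC5 in ATAC. With a −log10 q of at least 5, the PolII calls of shHDAC6 against shCtrl went from 1 to 0 lost and from 1 to 0 gained. ATAC of that contrast had 1 lost (PCDHGC3, beside 0.145% of all starts), and ATAC of shCtrl against parental control 0 lost. With a 3 kb window pan-acetyl had 1 gained with NextA (PCDHB8, beside 20.3% of all starts). With equal list length ATAC of shCtrl against parental control had 0 lost (beside 0.521%) and 1 gained (PCDHGC4, beside 1.58%). Under the q threshold the starts marked in every list went to 0 in CUT&Tag, both hairpin PolII groups, NextA ATAC and shHDAC6 ATAC, and to 1 in control and shCtrl ATAC, and PolII coverage of the gamma constant stretch to 0. Leaving out each list gave 62 of 76 numbers unchanged or within 1.5 times, again mostly numbers reported as 0. With NextA, HDAC6 losses ran from 0 to 3 (3 without the CST control list, 2 without the Novus one, beside 20.4% and 48.2% of all starts), pan-acetyl gains from 0 to 2 (2 without the first NextA list, beside 22.8%), PolII losses from 0 to 4 (4 without the first control list, beside 1.42%) and ATAC gains from 0 to 3 (3 without the first NextA list, beside 0.496%). ATAC losses after knockdown ran from 0 to 1 (PCDHGA11 without the third shCtrl list, beside 0.506%, and PCDHGC4 without the first shHDAC6 list, beside 0.571%). For shCtrl against parental control, PolII losses ran from 0 to 7 (7 without the first control list, beside 4.78%). PolII gains ran from 0 to 1 (1 without the second, beside 8.49%). ATAC losses there ran from 1 to 2 (2 without the second or the third control list, beside 2.12% and 2.11%). ATAC gains ran from 0 to 2 (2 without the third shCtrl list, beside 0.571%). The cause of these changes was not tested. No single gene's call turned into the opposite call, while ATAC of shCtrl against parental control went from 1 lost to 1 gained, another gene, at equal list length. No paired analysis was possible because the calls come from no test; a start lost in every same-numbered pair is, by the rule, the same call. The sequencing depth behind each list is unknown, which limits what an absent peak shows.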
